A study of Mus musculus with 8 samples.

Results

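The broad domains of histone H3 lysine 9 trimethylation (H3K9me3) described here were the H3K9me3-enriched regions at least 50 kb wide on mouse chromosomes 1 to 19. They were chosen by width alone, from the list of regions deposited for the mark, and 898 of its 27053 regions on these chromosomes met the rule, or 3.32%. The region lists came from chromatin immunoprecipitation with sequencing (ChIP-seq), in which DNA bound to a histone mark is pulled down with an antibody and sequenced, and 1 list was deposited for each of H3K9me1, H3K9me2 and H3K9me3. The study compared the 3 methylation states in mouse embryonic fibroblasts (MEFs), with 2 replicates for each mark and 2 of sonicated input DNA. All 8 samples were labelled wild type. The study's methods describe these wild-type cells as MEFs that carry a conditional *Eset1* (*Setdb1*) allele, which tamoxifen can delete and which was left intact here, and as 1 clone grown from a single cell and picked for high Cre activity. The lists gave chromosome, start and end with no height, score or value per replicate. The read depth of a region is therefore unknown, no difference below has a replicate test, and the intervals given cover counting error only. Neighbouring domains are not independent.

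Heterochromatin, the compact and mostly silent part of the genome, is marked by methyl groups on lysine 9 of histone H3. SET-domain enzymes place it in mouse cells, among them the *Suv39h* pair, best known for H3K9me3 in repeat-rich heterochromatin, the *Eset* (*Setdb*) pair and *G9a* with *Glp*, best known for mono- and dimethylation in gene-rich chromatin. H3K9me3 is bound by proteins of the HP1 family and can spread along the chromatin fibre into long blocks, which often cover silent gene clusters and gene-poor stretches. A nucleosome tail carries a single methylation state at a time, so regions listed for several states can hold a mixture of tails, nucleosomes, alleles or cells.

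Gene starts inside the domains, pooled over chromosomes, differed in sequence with the marks that accompanied H3K9me3, and 6 promoters are printed below as examples. Each line holds the 250 bases upstream of a gene start, from RefSeq on GRCm38.p6, written 5′ to 3′ along the gene, with each CG dinucleotide in capitals. CG is the site of DNA methylation in mammals and reads the same on both strands. The first 3 starts lay in an H3K9me3 domain and in neither an H3K9me1 nor an H3K9me2 region. They belong to *Ajap1*, which encodes an adherens junction-associated protein (chr4:153482831-153483080, minus strand), *Srrm4*, a neuronal splicing regulator (chr5:116591818-116592067, minus strand), and *Kit*, the receptor for stem cell factor (chr5:75574737-75574986, plus strand). The other 3 starts lay in all 3 lists. They belong to *Edar*, the ectodysplasin receptor (chr10:58675697-58675946, minus strand), *Vmn2r81*, a vomeronasal receptor (chr10:79247527-79247776, plus strand), and *Olfr796*, an odorant receptor (chr10:129608480-129608729, minus strand). *Kit*, *Edar* and *Olfr796* were picked after their values were seen.
Ajap1: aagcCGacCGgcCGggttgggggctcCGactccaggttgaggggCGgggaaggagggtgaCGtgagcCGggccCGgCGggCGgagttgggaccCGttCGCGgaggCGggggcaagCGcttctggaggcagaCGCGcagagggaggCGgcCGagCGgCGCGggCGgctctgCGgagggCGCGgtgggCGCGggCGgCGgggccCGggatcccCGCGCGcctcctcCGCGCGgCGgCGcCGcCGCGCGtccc
Srrm4: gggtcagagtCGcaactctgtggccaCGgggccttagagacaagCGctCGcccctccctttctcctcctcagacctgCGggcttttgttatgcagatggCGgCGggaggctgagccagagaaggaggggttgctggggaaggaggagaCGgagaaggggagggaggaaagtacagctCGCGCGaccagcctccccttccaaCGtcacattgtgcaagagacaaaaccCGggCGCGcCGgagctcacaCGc
Kit: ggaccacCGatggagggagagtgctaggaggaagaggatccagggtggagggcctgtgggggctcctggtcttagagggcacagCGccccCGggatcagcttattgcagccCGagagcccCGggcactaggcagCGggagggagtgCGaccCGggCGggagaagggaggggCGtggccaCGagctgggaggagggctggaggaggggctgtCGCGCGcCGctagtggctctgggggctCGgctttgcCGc
Edar: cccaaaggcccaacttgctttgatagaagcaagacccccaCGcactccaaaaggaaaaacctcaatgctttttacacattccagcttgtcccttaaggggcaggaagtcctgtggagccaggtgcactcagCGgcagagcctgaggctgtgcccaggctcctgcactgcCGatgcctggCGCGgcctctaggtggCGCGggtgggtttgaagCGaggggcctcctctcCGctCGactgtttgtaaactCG
Vmn2r81: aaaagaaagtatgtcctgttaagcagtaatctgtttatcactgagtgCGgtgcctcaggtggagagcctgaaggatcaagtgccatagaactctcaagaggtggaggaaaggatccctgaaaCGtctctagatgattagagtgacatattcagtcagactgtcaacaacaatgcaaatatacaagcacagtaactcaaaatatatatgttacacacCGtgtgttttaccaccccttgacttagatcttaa
Olfr796: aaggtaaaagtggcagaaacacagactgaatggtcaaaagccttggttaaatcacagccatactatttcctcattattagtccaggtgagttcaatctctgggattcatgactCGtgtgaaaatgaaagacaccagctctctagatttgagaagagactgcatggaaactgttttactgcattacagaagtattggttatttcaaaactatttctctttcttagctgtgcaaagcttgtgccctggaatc

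The *Ajap1* window held 43 CG dinucleotides, the *Srrm4* window 17 and the *Kit* window 17. These 3 counts are above the median of 8 for starts in domains with neither other mark. The *Edar* window held 11, the *Vmn2r81* window 3 and the *Olfr796* window 1. Among all 19174 RefSeq windows of protein-coding genes on chromosomes 1 to 19 the median was 11, and 6.08% held no CG.

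The domains covered 92.3 Mb, which was 30.6% of the 302 Mb in the H3K9me3 list on these chromosomes. Their width ran from 50.25 kb to 1038.75 kb, with a median of 75.75 kb and the middle 50% of values between 60 and 112.5 kb. At least 100 kb was reached by 272 domains, 200 kb by 68, 300 kb by 26 and 500 kb by 8. Domain counts differed strongly between chromosomes. Chromosome 10 held 286 domains, chromosome 15 held 159 and chromosome 8 held 152, so that these 3 chromosomes held 66.5% of the domains (95% Wilson interval 63.3 to 69.5%). Chromosome 5 followed with 79 and chromosome 17 with 63. Chromosomes 2, 11, 9 and 4 held 29, 28, 26 and 25 domains, chromosomes 19 and 14 held 15 and 13, and chromosomes 7, 1, 12, 13 and 3 held 8, 7, 3, 3 and 2. There was no domain on chromosomes 6, 16 or 18. Domains took up 21.1% of the assembled bases of chromosome 10, 16.4% of chromosome 15, 11.1% of chromosome 8, 8.61% of chromosome 17 and 7.32% of chromosome 5. The unevenness was that of the lists as a whole. H3K9me3 regions of any width covered 58.8% of chromosome 10, 44.1% of chromosome 15 and 37.7% of chromosome 8, and 0.687, 0.582 and 0.244% of chromosomes 6, 16 and 18. H3K9me1 regions covered 56.5, 46.8 and 35.5% of the first 3 and 0.13, 0.028 and 0.385% of the last 3, and H3K9me2 regions 59.0, 46.1 and 33.9% and at most 0.035%. A share of a domain in H3K9me1 or H3K9me2 regions therefore has to be read against its own chromosome. The part of the region calling and of the clone in the unevenness was not tested.

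**Figure D1:**
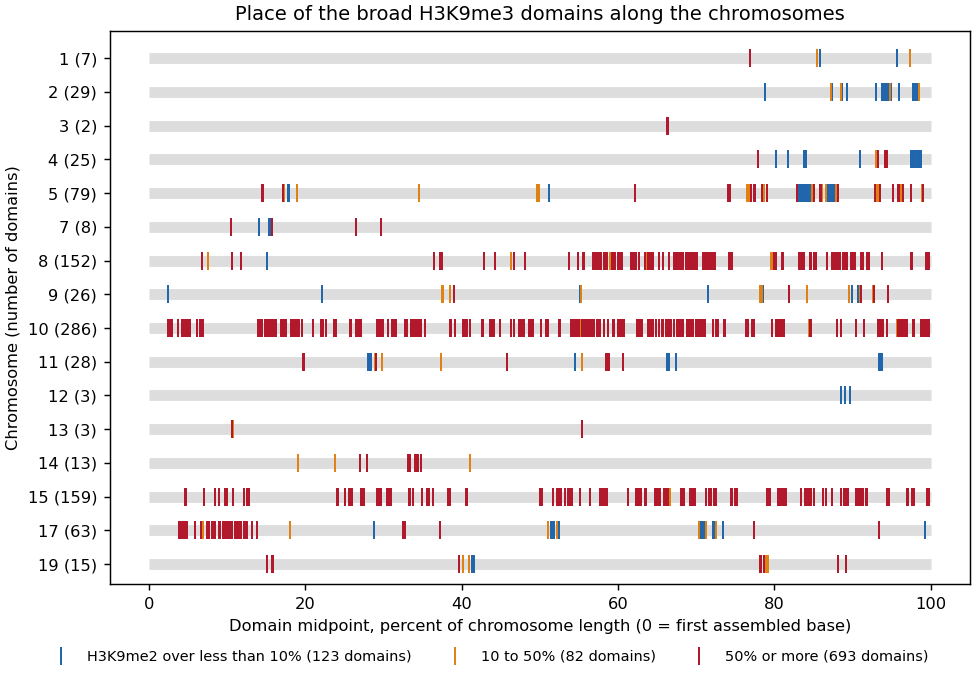
Each tick is 1 of the 898 domains, placed at its midpoint as a percent of chromosome length and coloured by the share of the domain that lay in H3K9me2 regions. Chromosomes 10 and 15 carry red ticks along most of their length, while the ticks of chromosomes 2 and 4 crowd into the last 20% and are mostly blue.

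On several chromosomes the domains crowded toward an end. On chromosome 2, 28 of 29 domains had their midpoint in the last 20% of the chromosome, the end away from the centromere, and on chromosome 4 the count was 24 of 25. H3K9me3 regions under 50 kb were spread more widely on the same chromosomes, with 34.6% of 812 in the last 20% of chromosome 2 and 58.3% of 276 in that of chromosome 4. On chromosome 1, 6 of 7 domains lay in the last 20%, against 26.5% of 1185 narrower regions, and on chromosome 5 it was 48 of 79, against 18.2% of 1584. Chromosome 17 showed the opposite order, with 38 of 63 domains in the first 20%, next to the centromere, and 261 of 1447 narrower regions there. On chromosome 10 the domains were spread from end to end, with 17.5% in the first 20% and 18.2% in the last. The 28 domains of chromosome 11 and the 15 of chromosome 19 were also scattered, with 5 and 2 of them in the last 20%. Of the narrower regions, 4.6 and 18.9% lay there. Chromosome 9 leaned toward its end, with 11 of 26 domains in the last 20%, against 27.1% of 1967 narrower regions.

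H3K9me2 covered most of the typical domain and H3K9me1 ranged from none to all of it. The share of a domain in H3K9me2 regions had a median of 93.1% (95% order-statistic interval 92.0 to 94.6%), with the middle 50% of domains between 54.8 and 98.5%. An H3K9me2 region met 814 domains, or 90.6%, and covered at least 90% of 506 and the whole of 117. The share in H3K9me1 regions had a median of 34.5% (26.6 to 42.0%), with the middle 50% between 0.069 and 87.0%. An H3K9me1 region met 673 domains, or 74.9%, and covered at least 90% of 196 and the whole of 58, while 225 domains held no H3K9me1 at all. Over domain bases, 70.9% carried H3K9me2 and 40.3% carried H3K9me1.

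**Figure D2:**
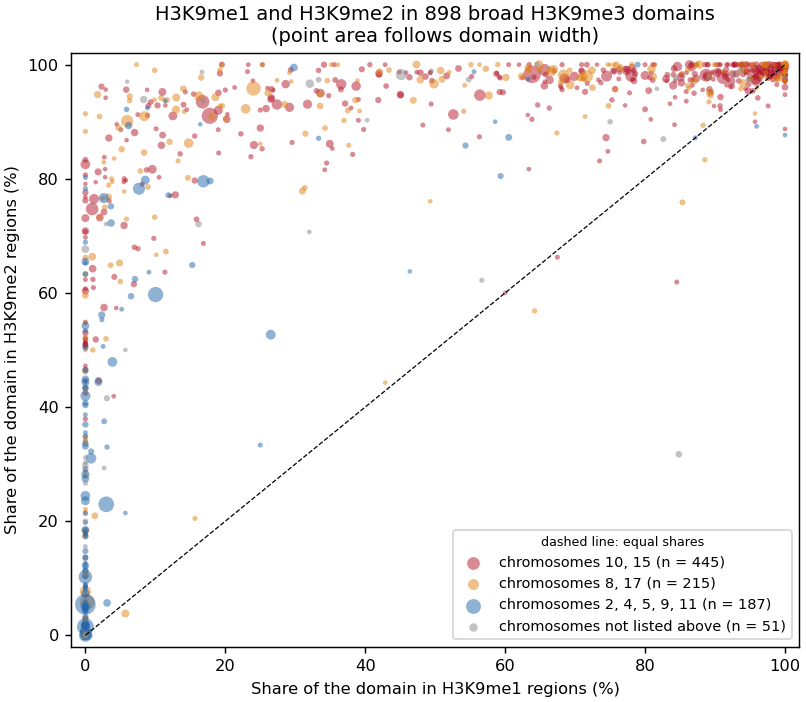
Each point is 1 domain, with the share of its length in H3K9me1 regions on the horizontal axis and in H3K9me2 regions on the vertical axis, coloured by chromosome, with an area that follows its width. Points fill the left and upper borders, and 51 of the 898 lie below the dashed line of equal shares.

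H3K9me1 inside the domains lay nested in H3K9me2. Of the domain bases with H3K9me1, 98.5% also carried H3K9me2, while 55.9% of the domain bases with H3K9me2 carried H3K9me1. Bases in all 3 lists made up 39.7% of the domains, or 36.6 Mb, bases in the H3K9me3 list alone 28.5%, or 26.3 Mb, and bases with H3K9me1 but no H3K9me2 0.622%. The share in H3K9me2 exceeded that in H3K9me1 in 719 domains, was equal in 128 and was smaller in 51. A domain on chromosome 13, chr13:12861751-12970500, was the single case in which H3K9me1 without H3K9me2 covered over 50% of the length, with 84.8% in H3K9me1 regions and 31.7% in H3K9me2 regions. It held no protein-coding gene. The 2 marks came in pieces inside the domains, with a median of 9.75 kb for 3101 H3K9me2 pieces and 4.5 kb for 3523 H3K9me1 pieces.

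Wider H3K9me3 regions carried more H3K9me2. H3K9me2 covered 37.8% of the bases of H3K9me3 regions under 5 kb, 42.8% at 5 to 10 kb, 54.8% at 10 to 20 kb, 65.6% at 20 to 50 kb and 70.9% in the domains. H3K9me1 covered 30.3, 27.1, 32.6, 38.2 and 40.3% of the bases in the same order. Repeat-masked sequence went the other way, from 43.0% of bases in regions under 5 kb and 45.2% at 5 to 10 kb to 38.5, 34.0 and 30.1% in the wider classes. Width was the rule of choice, and these values are a description of the classes. Near the limit the values varied from width to width. The 13 domains of 50.25 kb had a median H3K9me2 share of 97.01% and a median H3K9me1 share of 65.7%, and the 25 regions of 49.5 kb had 87.9 and 19.7%. The 16 domains of 51.75 kb had 93.5 and 33.3%, and the 30 regions of 48 kb 94.5 and 28.1%.

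The width classes drew on the chromosomes in different proportions, so the domains were also set against narrower H3K9me3 regions and against sequence outside H3K9me3 on the same chromosomes. With each chromosome weighted by its domain length, H3K9me2 covered 70.9% of domain bases, 57.3% of narrower regions and 14.2% of bases outside H3K9me3. H3K9me1 covered 40.3, 37.6 and 34.0%, a far smaller contrast. Of the 13 chromosomes with at least 5 domains, H3K9me2 was higher in domains than outside on 13 and higher than in narrower regions on 8. H3K9me1 was higher in domains than outside on 8 and higher than in narrower regions on 7. GC content was above that of the outside sequence on 12 of the 13 chromosomes, with a weighted 43.4% in domains, 42.8% in narrower regions and 41.8% outside. Repeat-masked sequence made up a weighted 30.1% of the domains, 38.9% of narrower regions and 31.5% outside, and on none of the 13 chromosomes was it higher in domains than in narrower regions.

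The amount of H3K9me2 in a domain differed with the chromosome that held it. The median H3K9me2 share was 97.5% on chromosome 10, 96.0% on chromosome 15, 94.5% on chromosome 8, 92.8% on chromosome 17 and 87.0% on chromosome 14. It was 72.1% on chromosome 19, 35.3% on chromosome 7, 30.3% on chromosome 1, 24.4% on chromosome 5, 15.5% on chromosome 9 and 14.9% on chromosome 11, and 0 on chromosomes 2 and 4. Median H3K9me1 shares were 83.1% on chromosome 10, 60.0% on chromosome 15, 34.9% on chromosome 8 and 33.6% on chromosome 17, and 0 on chromosomes 1, 2, 4, 5, 9 and 11. Without chromosomes 10 and 15 the median over all domains was 65.2% for H3K9me2 and 3.65% for H3K9me1.

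Grouped after these values were seen, the domains fell into 4 classes. H3K9me2 and H3K9me1 each covered at least 50% of 393 domains, which spanned 37.7 Mb, lay mostly on chromosomes 10 (191), 15 (88) and 8 (63) and held 8.09 protein-coding gene starts per Mb. H3K9me2 covered at least 50% and H3K9me1 less than 50% of 300 domains of 31.1 Mb, with 2.60 starts per Mb. H3K9me2 covered 10 to 50% of 82 domains. The last class, with H3K9me2 over less than 10%, held 123 domains of 14.9 Mb, of which 29 lay on chromosome 5, 25 on chromosome 2, 19 on chromosome 4, 14 on chromosome 11 and 14 on chromosome 17. Their sequence was 46.0% GC and 24.9% repeat-masked, against 42.9 and 32.9% in the class with much of both marks, and they held 2.95 starts per Mb. The classes drew on different chromosomes, whose part in these values was not tested.

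Neither H3K9me1 nor H3K9me2 was listed anywhere in 83 domains, or 9.24% (7.52 to 11.3%). These bare domains were not small, with a median width of 76.5 kb and a largest width of 411 kb. Chromosomes 5, 4 and 2 held 20, 19 and 18 of them, and chromosomes 10, 8 and 15 held none. H3K9me1 regions covered 19.2, 0.714 and 12.1% of chromosomes 5, 4 and 2, and H3K9me2 regions 10.4, 0.715 and 2.69%. On chromosome 7 the values were 0.254 and 0.539%. Of all domain bases, H3K9me2 covered 12.6% on chromosome 4 and 54.0% on chromosome 7. Whether sparse lists had a part in the bare domains was not tested. The widest, chr4:153212251-153623250, contained *Ajap1* whole. The domain chr4:154425751-154644750, 219 kb wide, took in the start of *Prdm16*, a transcription factor and histone methyltransferase of brown fat that was also picked after its values were seen, and 98.6% of the *Prdm16* body lay in bare domains. *Kit* lay whole in a bare domain of 113.25 kb, chr5:75568501-75681750. A bare domain of 224.25 kb on chromosome 7, chr7:22383001-22607250, met 8 genes, 4 of them vomeronasal receptor genes of the *Vmn1r* cluster, which are close copies of each other, so the placing of reads among them is uncertain.

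The widest domains ranged from nearly without H3K9me2 to nearly filled with it. H3K9me2 covered 5.42% of the widest, chr2:169004251-170043000, which held the start of the zinc finger gene *Tshz2* (tshirt family) and *Gm11011*, and 1.49% of the domain chr5:128019751-128722500 with *Tmem132d*, *Fzd10* and *Piwil1*, and H3K9me1 was absent from both. The domain chr15:73788001-74535000, with *Mroh5*, *Gm6569* and the start of *Adgrb1*, was 98.3% in H3K9me2 and 63.9% in H3K9me1. Around *Cdh4*, chr2:179174251-179778750 was 23.0% in H3K9me2, and around *Lrfn2*, chr17:48589501-49131000 was 5.82%. The domain chr5:125590501-126165750, partly in *Tmem132b*, had 59.7% H3K9me2 and 10.04% H3K9me1, and chr5:116152501-116607000, with *Ccdc60*, *Hspb8* and *Srrm4*, had 10.2% and none. A further 2 met no protein-coding gene, at chr15:86499751-87144750 and chr15:87963001-88424250, the latter with 93.5% H3K9me2 and 16.7% H3K9me1.

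**Figure D3:**
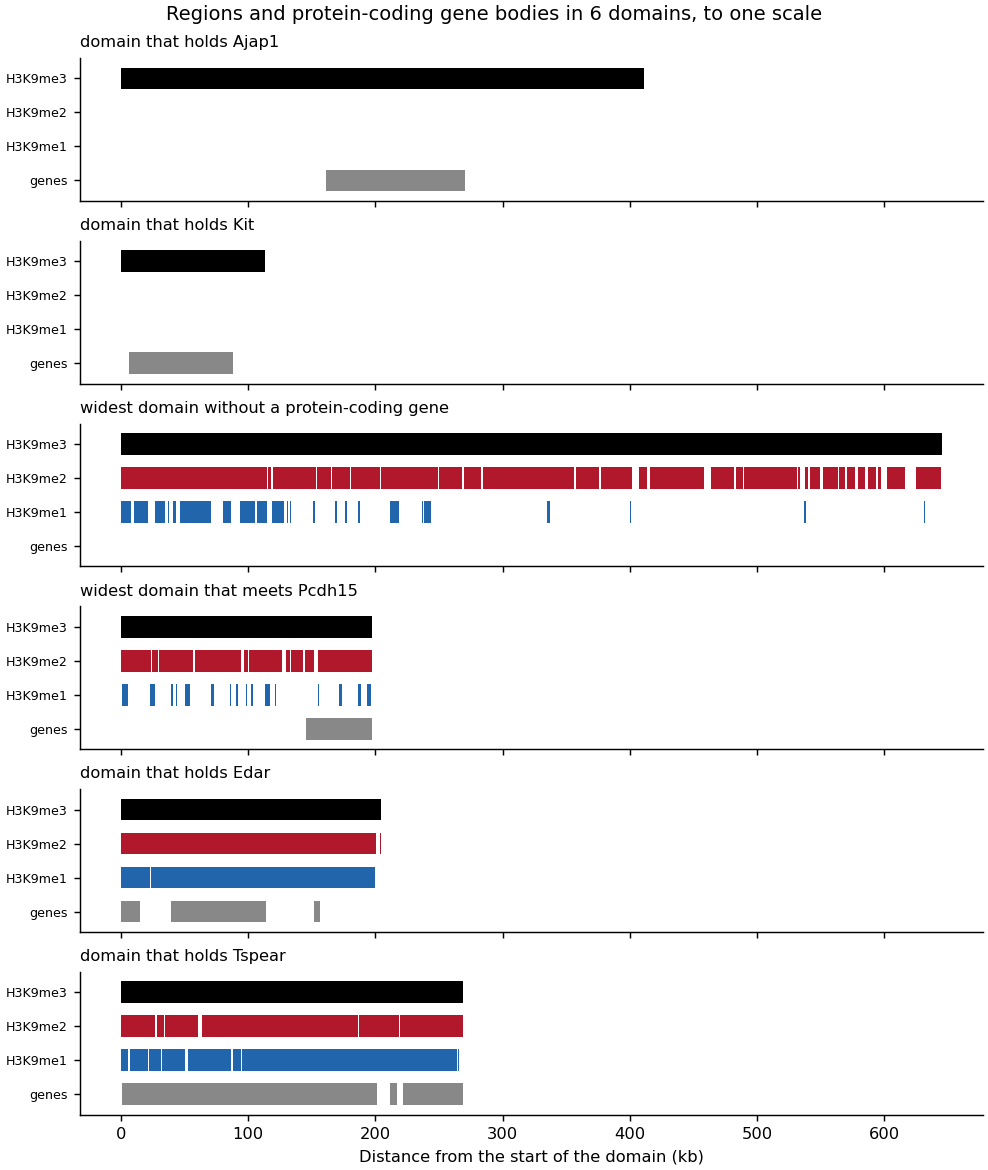
Bars mark H3K9me3, H3K9me2 and H3K9me1 regions and protein-coding gene bodies in 6 domains, all drawn to the same scale from the start of the domain in kb. The domains of *Ajap1* and *Kit* show no H3K9me2 or H3K9me1, the gene-free domain and the widest domain that meets *Pcdh15* show nearly full H3K9me2 with scattered H3K9me1, and those of *Edar* and *Tspear* show both marks almost throughout.

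Other domains were filled by all 3 marks. The domain around *Edar*, chr10:58561501-58766250, had 97.1% of its length in H3K9me1 and 98.5% in H3K9me2 regions. The domain with the most protein-coding genes, chr10:77685751-77954250, met 26 of them, among them *Tspear* and a cluster of keratin-associated protein genes that includes *Krtap12-1* and *Krtap10-4*, with 95.8% in H3K9me1 and 97.5% in H3K9me2 regions. A domain of 189.75 kb, chr10:127746751-127936500, met 10 genes, 7 of them retinol dehydrogenase genes of the *Rdh* family, and was fully in H3K9me1 and 99.6% in H3K9me2. The widest domain that was fully covered by both marks, chr17:5537251-5739750 at 202.5 kb, lay within *Zdhhc14*, a protein acyltransferase gene. A domain of 203.25 kb in *Kcnq3*, a voltage-gated potassium channel gene, chr15:66093751-66297000, was fully in H3K9me2 and 86.3% in H3K9me1.

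Domains with much H3K9me1 or H3K9me2 lay in surroundings with much of the same mark. For 833 domains with at least 100 bins of 750 bp outside H3K9me3 within 500 kb on either side, the share of those bins in H3K9me1 regions was compared with the share of the domain in H3K9me1 regions. Spearman's rho was 0.82 for H3K9me1 and 0.58 for H3K9me2, as a description over domains that share chromosomes and flanking bins. Where local H3K9me1 was under 5%, the median domain had 0% H3K9me1 and 3.91% H3K9me2 (158 domains). The medians were 2.02 and 61.5% at 5 to 20% local H3K9me1 (95 domains), 11.6 and 86.1% at 20 to 40% (141 domains) and 85.9 and 98.0% above that (439 domains). Within chromosomes the rho for H3K9me1 was 0.85 on chromosome 8, 0.81 on chromosome 10, 0.81 on chromosome 17, 0.74 on chromosome 15 and 0.58 on chromosome 5. It was lower on chromosomes 9, 11 and 2, at 0.39, 0.36 and 0.23, with 26 to 28 domains each. On chromosome 4 it was 0.75. For H3K9me2 the rho was lowest on the chromosomes with the most domains, at 0.13 on chromosome 8, 0.31 on chromosome 10 and 0.33 on chromosome 15. It was 0.33 on chromosome 9, 0.45 on chromosome 2, 0.48 on chromosome 5, 0.59 on chromosome 17, 0.81 on chromosome 4 and 0.84 on chromosome 11, and thus above the rho for H3K9me1 on chromosomes 2, 4 and 11.

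The domains were poorer in genes than sequence outside H3K9me3, and most of those that met genes met a single gene. Of 20807 protein-coding genes on chromosomes 1 to 19 in GENCODE M21, 614 met a domain by at least 1 bp, or 2.95%, the background for the gene lists below. The 5′ end lay in a domain for 448 (2.15%), the whole body in 1 domain for 325 (1.56%) and at least 50% of the body in domains for 479 (2.3%). No protein-coding gene was met by 385 domains, or 42.9% (39.7 to 46.1%), 1 gene by 395 and at least 2 genes by 118. No gene start lay in 648 domains, 186 domains lay inside the body of a single gene, and 158 held a whole gene. Of domain bases, 2.04% were exonic, 35.9% intronic and 62.1% intergenic. Gene starts numbered 4.85 per Mb of domain, 4.60 per Mb of narrower H3K9me3 regions and 11.5 per Mb outside H3K9me3 with chromosomes weighted by their domains. The density in domains was below the outside value on 11 of the 13 chromosomes. The exceptions were chromosome 7, at 20.8 against 14.3 starts per Mb, where 9 of 21 starts were *Vmn1r* genes, and chromosome 14, at 13.8 against 7.32, where 12 of 14 starts were predicted genes.

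Domains that held genes carried more H3K9me1. The median H3K9me1 share was 19.01% (11.6 to 28.6%) in domains without a protein-coding gene, 39.8% (25 to 58.7%) with 1 gene and 76.6% (59.3 to 87.3%) with at least 2. It was 83.7% (70.3 to 88.7%) in the 158 domains with a whole gene and 22.8% (14.0 to 39.2%) in the 186 that lay within a gene. H3K9me2 medians lay between 91.4 and 97.4% in these groups. The groups drew on different chromosomes, whose part in these medians was not tested. Non-coding genes were met at various rates. Of 5209 lincRNA genes 271 met a domain (5.203%), of 1789 unprocessed pseudogenes 103 (5.76%), and of 8924 processed pseudogenes 327 (3.66%). No annotated gene of any kind was met by 141 domains, or 15.7%.

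Long genes were met most often. A domain met 15.6% of the 218 protein-coding genes of at least 500 kb and 9.66% of the 735 genes of 200 to 500 kb. Of genes of 50 to 200 kb it met 3.44%, of genes of 10 to 50 kb 1.69% and of genes under 10 kb 3.14%. A long gene offers more bases to overlap, and by the place of the 5′ end the share was 5.05% for the longest class and 3.06% for the shortest. The domain part of genes under 10 kb had a median of 100% in both H3K9me1 and H3K9me2 regions. In genes of at least 500 kb these medians were 0.3% and 43.0%.

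Several long genes had most of their body in domains, or large parts of it. The photoreceptor and hair cell cadherin gene *Pcdh15* (chr10:73099342-74649737) had 969 kb of its body in 11 domains, with 87.2% in H3K9me2 and 24.8% in H3K9me1. The adhesion gene *Sdk1* had 843 kb in 7 domains, with 44.7% in H3K9me2 and 0.9% in H3K9me1. *Auts2*, a gene of neuronal development, had 838 kb in 7 domains and far less of either mark, 11.2% and 0.2%. *Anks1b*, which encodes a postsynaptic protein, had 795 kb in 9 domains, with 94.1% and 67.5%. *Tmem132d* had 645 kb, 99.0% of its body, with 0.2% in H3K9me2 and none in H3K9me1. *Ctnna3* (alpha-T-catenin) and *Zfhx3* had 489 and 421 kb with 96.8 and 96.4% in H3K9me2, while the receptor phosphatase gene *Ptprm* had 457 kb with 7.1% and *Tshz2* 410 kb with 10.8%. Among these 9 genes, H3K9me2 covered at least 87.2% of the domain part of the 4 on chromosomes 10 and 8, and at most 44.7% in the other 5.

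Among the longest genes lying whole in 1 domain were *Fam19a5* at 215 kb, *Tspear* at 200.5 kb, *Efcab6* at 199 kb, *Rimbp2* at 196 kb, *Lrfn2* at 165 kb, *Srrm4* at 153 kb, *Map7* at 133 kb, *Lama1* at 125 kb and *Ajap1* at 110 kb. H3K9me2 covered 97.01 to 100% of *Tspear*, *Efcab6* and *Map7*, which encodes a microtubule-associated protein, and H3K9me1 covered 86.8 to 99.4%. H3K9me2 covered 83.0% of *Fam19a5*, which encodes a secreted chemokine-like protein, and 55.2% of *Rimbp2*, a gene of the presynaptic active zone. For *Lrfn2*, a synaptic adhesion gene, for *Srrm4* and for *Lama1*, a laminin subunit gene, the H3K9me2 share was 1.4, 5.7 and 11.96%, and none of the 3 carried H3K9me1.

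The gene lists were read against the 2.95% of all protein-coding genes that met a domain. The mean share of a gene's chromosome in domains ran from 2.72% for the cadherin list to 6.15% for the immune list. It was 5.44% for the keratin list and 3.92% for all genes. Neither this nor gene length was adjusted for. Genes of synaptic and neuronal adhesion were met in 8 of 60 cases (13.3%) and had a median length of 391 kb. *Lrfn2* and 97.3% of *Adgrb1*, a brain adhesion receptor gene, lay in domains, with 34.8% of *Cntn1* and 30.1% of *Lrrtm3*. Ion channel and receptor genes were met in 17 of 227 cases (7.49%), among them the potassium channel gene *Kcns2*, whole and fully in both other marks, and *Tmem132c*, at 99.3% with neither mark. The list also took in the 5 *Tmem132* genes, which encode transmembrane proteins and no channel, and 4 of these were met. Without them 13 of 222 genes were met (5.86%), a count added after the values were seen. *Kcnk9*, a two-pore potassium channel gene, had 99.2% of its body in a domain, with 100% of that part in H3K9me2 and 88.3% in H3K9me1. Of cadherin and protocadherin genes 5 of 99 were met (5.05%), led by *Cdh6* with 98.4% of its body in 3 domains and 88.4% of that part in H3K9me2. *Cdh4* had 73.6%, *Pcdh15* 62.5% and *Cdh23*, a gene of the inner ear, 27.4%. For axon guidance 3 of 70 genes were met, *Plxnc1* over 86.8% of its body, *Ephb1* over 55.5% and *Slit3* over 52.5%.

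Chemosensory receptors, the odorant, vomeronasal and taste receptors that are expressed in sensory neurons, were met in 93 of 1507 cases (6.17%). Of these, 88 lay whole in a domain, and their domain part had a median of 100% in both H3K9me1 and H3K9me2. Keratins and keratin-associated protein genes, which serve skin and hair, were met in 10 of 110 cases (9.09%). *Krt77*, *Krt90*, *Krt75* and *Krt76* lay whole in domains of chromosome 15, fully in both other marks. Zinc finger genes named *Zfp* were met in 18 of 385 cases (4.68%), with *Zfp709*, *Zfp612*, *Zfp641* and *Zfp882* whole in a domain. Many members of these families are close copies, and the uniqueness of their reads was not tested.

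Developmental transcription factor genes were met in 5 of 229 cases (2.18%), near the background. They were *Neurod4*, *Irx6* and *Olig3*, each whole in a domain and fully in H3K9me2, and parts of *Tshz2* and *Lmx1a*. Immune cluster genes were met in 3 of 204 cases (1.47%), the major histocompatibility genes *H2-Q6* and *H2-Q7*, in domains without the other marks there, and *Ly6k*, with both. Solute carrier genes were met in 16 of 372 cases (4.30%), with *Slc35f3*, *Slc5a4b* and *Slc5a8* whole in a domain and 99.6% of *Slc6a2*, the noradrenaline transporter gene. Of the ADAM and ADAMTS proteases 3 of 57 were met, *Adamts20*, *Adamts18* and *Adamts12*, and of the Wnt, Bmp, Fgf and Tgfb ligands 1 of 67, *Bmp7*, over 23.1% of its body. No domain met any of 75 ribosomal protein genes or any of 9 genes for H3K9 methyltransferases and HP1 proteins. Of 47 fibroblast matrix and marker genes 2 were met. *Tcf21*, a mesenchymal transcription factor gene, lay whole in a domain that was 89.7% in H3K9me1 and 97.4% in H3K9me2. *Mmp2*, a gelatinase gene of the fibroblast matrix, had 69.7% of its body and its start in a domain, with 16.5% of that part in H3K9me2 and 5.3% in H3K9me1. The other 45 fibroblast genes, collagen genes of the list included, met none, and the lists hold no expression values by which to check the cell type.

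Gene starts inside domains mostly lay in the other marks too. On the 13 chromosomes with at least 5 domains, 351 of 445 starts in domains lay in an H3K9me2 region, or 78.9% (74.8 to 82.4%), and 280 in an H3K9me1 region, or 62.9% (58.3 to 67.3%). For 986 starts in narrower H3K9me3 regions the shares were 57.5 and 40.4%, and for 14602 starts outside H3K9me3 they were 3.26 and 10.04%. The sequence just upstream also differed. The 250 bases before 341 starts in domains held a median of 3 CG dinucleotides, against 5 for 837 starts in narrower regions and 11 for 13888 starts outside H3K9me3. No CG was found upstream of 18.2% of starts in domains, 8.96% in narrower regions and 5.67% outside. In domains, the median was 2 for 223 starts in H3K9me1 regions, 3 for 52 in H3K9me2 without H3K9me1 and 8 for 66 in neither. At least 10 CG were held by 9.87, 26.9 and 47.0% of these windows, the last being near the 54.9% of windows outside H3K9me3. Chemosensory receptor genes gave 74 of the 341 windows with a median of 0.5, and the 267 other windows in domains had a median of 3. Without chemosensory genes, the median was 3 for 164 starts in H3K9me1 regions. All these windows were pooled over the 13 chromosomes, whose part in the contrasts was not tested. The windows of *Ajap1*, *Srrm4* and *Kit* printed above belong to the class in neither mark, those of *Edar*, *Vmn2r81* and *Olfr796* to the class in H3K9me1.

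**Figure D4:**
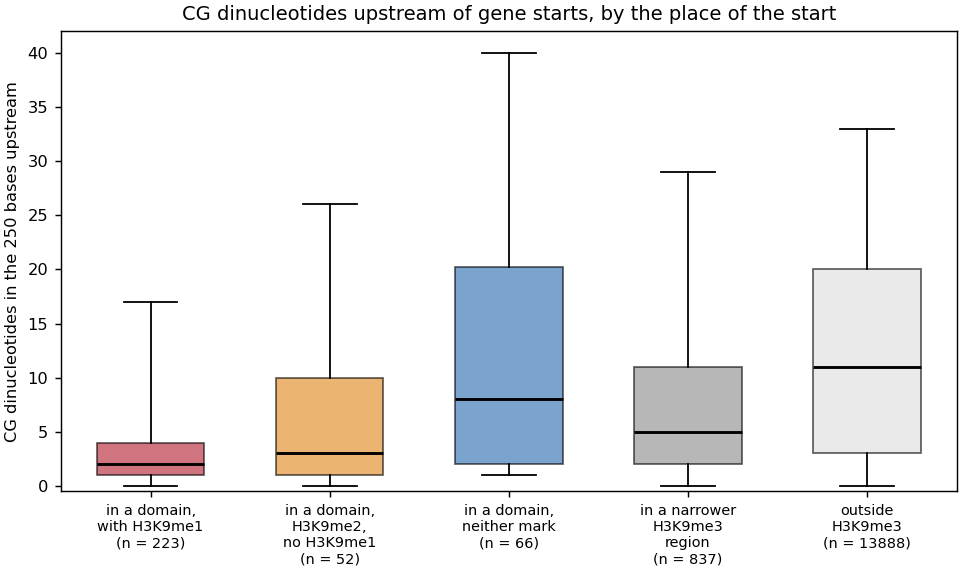
Boxes show the median and quartiles, and whiskers the 5th and 95th percentiles, of the number of CG dinucleotides in the 250 bases upstream of RefSeq gene starts on 13 chromosomes, by the place of the start. The median is 2 for starts in domains with H3K9me1, 8 for starts in domains with neither other mark and 11 outside H3K9me3.

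Gene deserts of at least 500 kb held a share of the domains close to their share of the genome. Those of at least 1 Mb wholly held a share of the domains below their share of bases. A desert was taken as an interval of at least 500 kb between the bodies of protein-coding genes, and 239 domains, or 26.6% (23.8 to 29.6%), lay wholly inside one. By bases, 30.9% of domain sequence lay in deserts, as did 30.9% of narrower H3K9me3 regions, while deserts made up 29.3% of chromosomes 1 to 19 and 27.8% when chromosomes were weighted by their domains. Intervals of at least 1 Mb made up 18.8% of these chromosomes, or 18.6% weighted. They wholly held 13.6% of domains (11.5 to 16.0%) and 20.7% of narrower H3K9me3 regions. A wide region fits wholly inside an interval less easily, and the share of domain bases at 1 Mb was not computed. Whether domains were fewer there is therefore not settled. Domains were unevenly shared among deserts, with 78 of 604 deserts holding a whole domain and 85 met by a domain in some part. Domains in deserts had a median H3K9me2 share of 84.5% and a median H3K9me1 share of 8.93%. The gene-free domains lay at a median of 110 kb from the nearest protein-coding gene, 203 of them at over 100 kb and 41 within 10 kb.

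Domains covered at least 90% of 5 deserts. The desert chr15:73839909-74516194, of 676 kb, lay entirely within the domain that starts within *Mroh5* and reaches into *Adgrb1*, and chr2:168955588-169582844 was 92.2% in the widest domain. The desert chr15:86498504-87544298, of 1046 kb, was 99.6% in domains, and chr15:87759365-88600301, was 96.2%. *Fam19a5* lies between them and was itself whole in a domain, so that 4 domains with gaps of at most 5 kb formed a chain from 86499751 to 87839250 on chromosome 15, 1339.5 kb long. The widest gene-free domain, chr15:86499751-87144750 at 645 kb, was part of it, with 91.0% in H3K9me2 and 17.8% in H3K9me1. On chromosome 10 the desert chr10:91181316-92684745 was 83.9% in domains, on chromosome 8 chr8:89044163-90247039 was 89.5%, on chromosome 5 chr5:132543345-134099710 was 75.4% and on chromosome 2 chr2:178487367-179442430 was 92.0%. The last ends at the first base of *Cdh4*, and 2 bare domains, chr2:178527001-178776000 and chr2:178876501-179116500, lay in it. Among the domains farthest from a protein-coding gene, chr5:133344001-133399500 was 700.2 kb from *Castor2* and held neither mark.

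Domain edges were often breaks within larger H3K9me3 territory. At 1796 edges, another H3K9me3 region began within 3 kb outside in 54.4%, against 32.2% of 12432 edges of H3K9me3 regions of 10 to 50 kb. At 12 to 30 kb outside, H3K9me3 covered 82.9% of bins for the domains and 56.7% for these narrower regions. Domains and narrower regions drew on the chromosomes in different proportions, whose part in these contrasts was not tested. With gaps of at most 5 kb closed, the 898 domains formed 697 chains, of which 145 held at least 2 domains and 346 domains in all. H3K9me2 covered 73.6% of bins 12 to 24 kb inside the edge, 65.5% in the last 3 kb, 38.3% in the first 3 kb outside and 60.0% at 3 to 12 kb outside. H3K9me1 followed the same course at 43.5, 40.1, 27.8 and 39.5%. Protein-coding gene starts numbered 5.15 per Mb at 12 to 24 kb inside, 5.94 in the last 3 kb inside, 10.8 in the first 3 kb outside, from 58 starts, 6.40 at 3 to 12 kb outside and 5.87 at 12 to 30 kb. The first bins outside hold no H3K9me3 by the construction of an edge. The drop lay in the outermost bins, where H3K9me2 covered 65.6% at 1.125 kb inside the edge and 56.1% in the bin at the edge itself, and H3K9me1 40.5 and 35.4%. On the scale of the whole domain, which averages over these bins, the marks differed little, with H3K9me2 between 68.8 and 72.4% and H3K9me1 between 39.3 and 42.1% over 10 equal parts of the domain length.

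**Figure D5:**
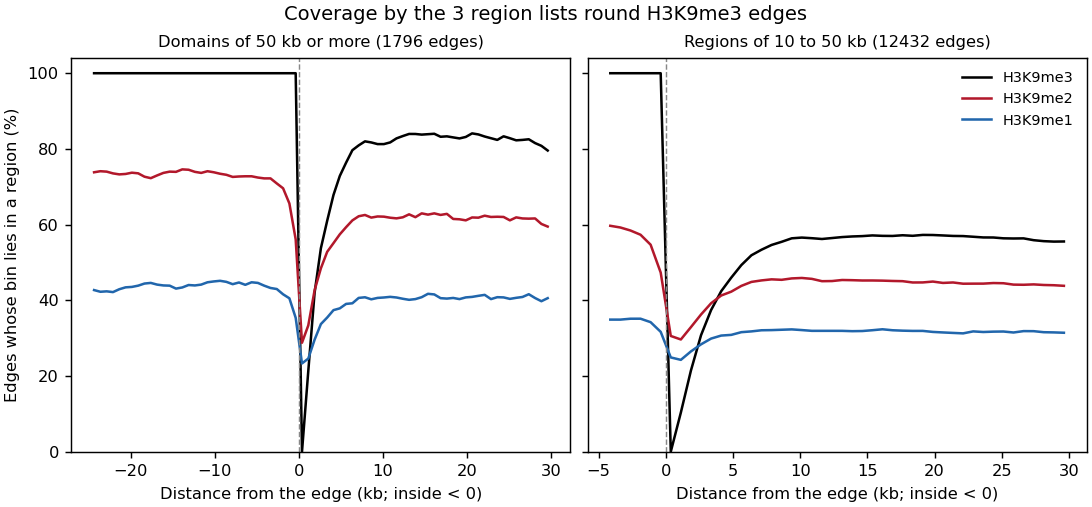
The share of edges whose 750 bp bin lies in an H3K9me3, H3K9me2 or H3K9me1 region is drawn against the distance from the edge in kb, for the domains on the left and for H3K9me3 regions of 10 to 50 kb on the right. All 3 lines dip next to the edge, H3K9me2 from 73.6% well inside to 38.3% in the first 3 kb outside the domains, and the H3K9me3 line climbs back above 80% for the domains.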

How the data were processed

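ChIP-seq was performed on wild-type MEFs for H3K9me1, H3K9me2 and H3K9me3, with 2 replicates of each and 2 of input. The authors mapped paired-end reads with bwa on mm10 (GRCm38), and histoneHMM, a hidden Markov model, gave the enriched regions. How replicates and input entered the call, and its threshold, are not given in the sources used here. The 3 deposited lists, 1 per mark, hold positions in another unit than a count or score, namely bins of 750 bp, with starts read as 1-based. The submitters' processing notes name BWA 0.7.1.

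Overlaps were computed exactly in base pairs with Python 3.11.15 and NumPy 2.4.6, with a minimum overlap of 1 bp, and the overlap code was checked against direct counts on simulated lists. Genes came from GENCODE M21 and promoter windows from RefSeq (GRCm38.p6). Shares have Wilson and medians order-statistic 95% intervals (SciPy 1.17.1). Domains, gene lists and classes were chosen with earlier results of these data known. Named were the 10 widest domains, the 10 genes with most bases in domains, the 10 longest whole genes, up to 4 genes per list by covered share, the domains with most H3K9me1 or H3K9me2, those farthest from genes, and regions beside the width limit. A few items that this rule names are not reported here. The local comparison, the 4 classes, chains and promoter sequences were added after the data were seen. Alternatives were the minimum width, joining, stricter lists, chromosomes, the overlap, the gene set and the desert length.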

Additional observations from a re-analysis of the deposited data

How the results depend on the processing

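Of 32 alternative settings over these results, 15 left the value within its interval or its count within 1.5 times, and 17 moved it. The number of domains was 457 at a minimum of 75 kb and 272 at 100 kb. With H3K9me3 regions up to 5 kb apart joined, the median H3K9me2 share was 81.8% and the median H3K9me1 share 26.5%, the gaps by their construction adding bases outside H3K9me3. Counting only H3K9me2 regions of at least 5 kb gave a median of 91.9%, and the same for H3K9me1 20.4%. Without chromosomes 10 and 15 the medians were 65.2% and 3.65%, and at a minimum of 100 kb the H3K9me1 median was 26.0%. Domains met by H3K9me2 were 86.3% when 10% of the domain had to be covered and 77.2% at 50%, and by H3K9me1 62.7 and 43.9%. Domains without a gene were 15.7% with all annotated genes and 72.2% with protein-coding starts, and domains in deserts were 35.7% at 250 kb and 13.6% at 1 Mb. Such deserts made up 36.9 and 18.8% of chromosomes 1 to 19. That these last shares change follows from the definitions. At 1 Mb the share of domains wholly inside was below the share of chromosome bases, which is an unlike measure. No paired analysis was possible because each mark had 1 list without replicate values, and leaving out a replicate was not run for the same reason. The study's methods give a sequencing depth per sample, but the lists hold no read counts per region. Nothing can therefore be said of regions that were missed.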
